A study of Mus musculus with 6 samples.

Results

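The genes described here encode the eukaryotic translation initiation factors (eIFs) of the mouse and their close regulators. They were taken from an FPKM table (reads scaled to gene length and library depth) of 54532 genes as the symbols that begin with Eif and a digit, 64 in all. Leaving out 4 Eif2ak genes, which encode kinases, and 8 pseudogenes left 52 genes, and the 48 that averaged 1 FPKM or more across the 6 libraries were described by factor complex. That level is the only measured value in the selection rule, but the set was chosen with earlier results of these data known. The lowest gene inside it was Eif2b3 with a mean of 5.46 FPKM. The highest of the 4 outside it was Eif4ebp3, an eIF4E-binding protein gene, with 0.373, 0.691 and 0.60 FPKM in shMettl3_dox against 1.03, 1.40 and 0.719 FPKM in shLuc_dox. Of the exonic bases of Eif4ebp3 67.3% lie in exons of AC115631.1 on the same strand, so its reads are uncertain. Eif2s3y and Eif4e1b were listed at 0 in every library, and Eif2c5, annotated as a long intergenic RNA, reached at most 0.105 FPKM.

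RNA-seq of total RNA compared mouse embryonic fibroblasts with a short hairpin against Mettl3 (shMettl3_dox, n = 3) and fibroblasts with a hairpin labelled shLuc (shLuc_dox, n = 3). All of the cells expressed E1A and HRasV12, an adenoviral oncoprotein and an activated Ras, and all received doxorubicin, a DNA-damaging topoisomerase poison, at 0.2 ug/ml for 6 hours. Cells without the drug or without the oncogenes were not analysed here, so each comparison is of Mettl3 knockdown within drug-treated transformed cells. The series title gives the aim as finding genes that go down after the knockdown under DNA damage. A single hairpin against Mettl3 is labelled, and the labels do not say whether the replicates are separate cultures, so p-values measure the spread between these libraries, which may be technical.

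As background, initiation begins when eIF1, eIF1A, eIF3, eIF5 and the eIF2 complex with the initiator tRNA load onto the small ribosomal subunit. The eIF4F complex recruits this assembly to the mRNA. In it eIF4E binds the cap, eIF4G is the scaffold and eIF4A is the helicase, while 4E-binding proteins compete with eIF4G for eIF4E and are switched off by mTORC1. The eIF2B complex recharges eIF2 with GTP and is blocked when eIF2 is phosphorylated under stress, and eIF5B joins the large subunit. METTL3 is the catalytic subunit of the m6A RNA methyltransferase. In human cells it has been reported to bind the eIF3h subunit, and eIF3 has been reported to bind m6A in mRNA leaders.

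Mettl3 itself was at 1.29, 1.53 and 1.65 FPKM in shMettl3_dox against 2.47, 3.14 and 2.59 FPKM in shLuc_dox. The groups did not overlap, and the log2 change was -0.58 ± 0.11 (SE; limma adjusted p = 0.00861). Recovered depth was 17295149 to 24950502 reads in shMettl3_dox and 16677349 to 19750070 reads in shLuc_dox. One library stood apart: the chi-square per degree of freedom between shMettl3_dox replicate 3 and replicates 1 and 2 of its group was 11.0 and 12.6, against 3.71 between replicates 1 and 2 and 3.30 to 4.34 among the shLuc_dox libraries. Of 10 fibroblast markers 4 reached a mean of 1 FPKM, among them Vim, the mesenchymal filament gene, at 678 to 742 FPKM in shMettl3_dox and 797 to 847 FPKM in shLuc_dox. Fn1, the fibronectin gene, averaged 95.6 FPKM in shMettl3_dox and 88.5 FPKM in shLuc_dox with overlap, while Pdgfrb averaged 4.93 FPKM in shMettl3_dox and 4.57 FPKM in shLuc_dox and Pdgfra 1.71 FPKM in shMettl3_dox and 2.69 FPKM in shLuc_dox, both without overlap. Col1a1, Col1a2, Col3a1, S100a4, Lum and Thy1 had means under 1 FPKM, and Thy1 was listed at 0 in all 3 shMettl3_dox libraries. The fibroblast list, mostly Vim, summed to 777 to 853 FPKM in shMettl3_dox and 894 to 946 FPKM in shLuc_dox. The 4 epithelial markers summed to 29.3 to 35.8 FPKM in shMettl3_dox and 49.2 to 52.8 FPKM in shLuc_dox, nearly all from Krt18 and Epcam. The 4 macrophage markers summed to 9.47 to 11.1 FPKM in shMettl3_dox and 15.4 to 18.1 FPKM in shLuc_dox, nearly all from Cd68, and endothelial markers summed to at most 0.301 FPKM. The part of these markers in the results was not tested, and in bulk RNA fewer cells of a type and less RNA per cell cannot be told apart.

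Initiation factor mRNAs were abundant, and their changes were small and mostly upward. With the Mettl3 hairpin 12 of the 48 rose, 1 fell and 35 did not pass the threshold (limma on log2(FPKM + 1), two-sided, Benjamini-Hochberg adjusted p under 0.05). The 13 called genes are 27.1% of the 48, against 28.1% of the 12098 tested genes called in either direction, so the number of calls was near the background. By direction, 25% rose, against 14.6% of all tested genes, and 2.08% fell, against 13.5%. The members lay at higher levels than all tested genes, and none of the shares here or below was matched on level. The genes that rose were Eif1a, Eif1ax, Eif1b, Eif2s2, Eif2a, Eif3f, Eif3i, Eif3l, Eif4a2, Eif4e, Eif4g2 and Eif5a. The gene that fell was Eif4ebp2, which encodes an inhibitor of eIF4E. The median log2 change was 0.10 over the 48 and 0.01 over all tested genes, and 38 of the 48 had a positive value (79.2%, against 52.8% of all tested genes). With all libraries scaled to the same protein-coding sum 35 were positive (72.9%, against 45.8%). No member went beyond 0.5 log2 units in either direction, where 7.14% of all tested genes lay, a comparison not matched on level. The 3 libraries of one group lay wholly above those of the other for 20 members higher in shMettl3_dox (41.7%, against 23.6% of all tested genes) and for 4 lower (8.33%, against 21.5%). With protein-coding scaling these numbers were 16 and 6, without a share of all tested genes to set beside them.

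**Figure D1:**
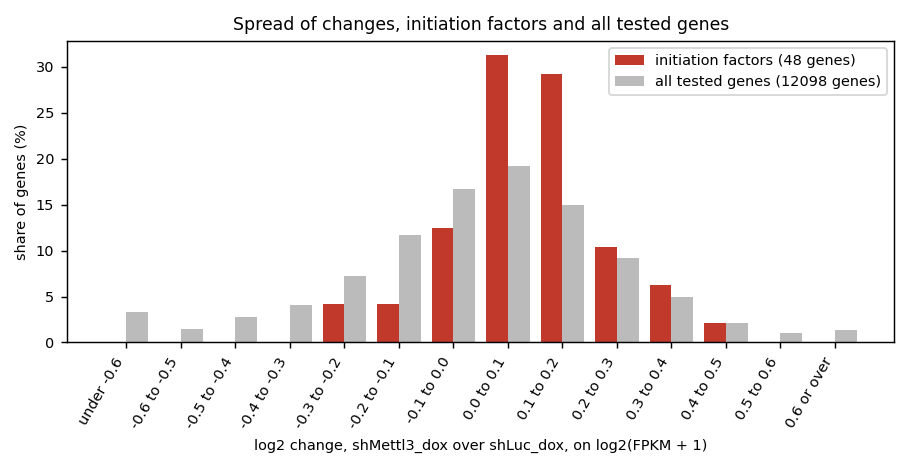
Share of genes (%, y axis) in each bin of log2 change of shMettl3_dox over shLuc_dox on log2(FPKM + 1) (x axis), for the 48 initiation factors and for the 12098 tested genes. The bins from 0.0 to 0.2 hold 31.3% and 29.2% of the factors, against 19.2% and 15.0% of all tested genes, and no factor lies beyond 0.5 on either side.

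Leaving out the library that stood apart, shMettl3_dox replicate 3, left 12 members higher and 1 lower, of which 11 and 1 were called with all libraries: Eif2a lost its call and Eif3d gained one. The number of rises was less stable to other libraries. Leaving out shLuc_dox replicate 1 gave 5, leaving out shLuc_dox replicate 2 gave 6, and leaving out shMettl3_dox replicate 2 gave 7 and added Eif4e3 as a second gene lower. Eif1a, Eif3i, Eif4a2, Eif4e and Eif4ebp2 passed in each of the 6 fits that left out 1 library. Eif2s2 passed in 5 (adjusted p = 0.0521 without shLuc_dox replicate 2), Eif4g2 in 5 (adjusted p = 0.0541 without shLuc_dox replicate 1) and Eif3l in 4 (adjusted p = 0.0502 and 0.0545 without shLuc_dox replicates 1 and 2). With protein-coding scaling 8 rose, Eif1ax, Eif2a, Eif3f and Eif5a being lost, and 2 fell, the second being Eif2d. The share of all tested genes called with a library left out or with protein-coding scaling is not given here. So these counts have no background beside them. On the recovered reads edgeR called 14 higher and 3 lower, where it called 33.4% of all tested genes, 17% higher and 16.4% lower.

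Sequence around the transcription start was looked up for the factors because many of them moved the same way. RefSeq (GRCm38.p6) gave a promoter, from 250 bases before to 50 after a start, for 38 of the 48. CACGTG, the E-box letters that MYC and related factors can bind and which read alike on both strands, occurred in at least 1 promoter of 10 of the 38 (26.3%): Eif1b, Eif3a, Eif3f, Eif3k, Eif4a1, Eif4e, Eif4g1, Eif4h, Eif5a and Eif5a2. The letters occurred in 12.3% of the 8463 tested protein-coding genes with a promoter and in 8.09% of all 27025 genes with one. In Eif3a they lie after the start, with the first base at 22. Among the 9 factors that rose and have a promoter 4 held the letters, and among the 28 that did not pass 6 held them. The windows of the 4 that rose, with that of the scaffold gene Eif4g1, follow in the direction of transcription with each CACGTG in capitals and ending at the base before a RefSeq start. The Eif4e window is chr3:138527018-138527267 (plus strand) and holds the letters in 2 places, with first bases at -228 and -64 relative to the start. The others are the last 100 bases: Eif3f at chr7:108934315-108934414 (plus), Eif1b at chr9:120492506-120492605 (plus), Eif5a at chr11:69921387-69921486 (minus, 1 of several RefSeq starts) and Eif4g1 at chr16:20672627-20672726 (plus).
Eif4e: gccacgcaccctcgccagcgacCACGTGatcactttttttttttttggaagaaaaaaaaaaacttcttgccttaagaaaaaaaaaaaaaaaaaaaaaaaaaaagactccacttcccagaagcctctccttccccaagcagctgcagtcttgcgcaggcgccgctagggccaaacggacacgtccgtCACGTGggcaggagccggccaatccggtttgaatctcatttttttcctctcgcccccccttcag
Eif3f: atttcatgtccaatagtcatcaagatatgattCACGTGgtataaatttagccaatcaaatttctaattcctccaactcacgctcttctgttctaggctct
Eif1b: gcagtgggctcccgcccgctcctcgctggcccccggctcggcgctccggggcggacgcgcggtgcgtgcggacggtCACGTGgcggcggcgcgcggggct
Eif5a: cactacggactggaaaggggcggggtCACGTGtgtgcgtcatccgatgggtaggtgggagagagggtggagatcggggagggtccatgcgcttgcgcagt
Eif4g1: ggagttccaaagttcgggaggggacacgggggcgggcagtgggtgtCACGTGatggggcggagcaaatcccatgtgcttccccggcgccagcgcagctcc
A match is only a run of letters and says nothing of binding in these cells. Searched on both strands, CCGGAAGT, letters of the ETS family, occurred in promoters of 7 of the 38 (18.4%, against 10.1% of tested genes), and TGATGNAA, of the kind ATF4 can bind, occurred in 1, Eif2s3x (2.63%, against 2.45%); neither overlaps the E-box letters. The letters GGACT, the commonest core of m6A sites in mammals, were counted on the sense strand of the longest coding transcript. The median was 1.12 per kilobase in the 12 factors that rose, 1.18 in the 35 that did not pass, 1.04 in Eif4ebp2 and 1.04 over 10650 tested protein-coding genes.

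The level of the 48 factors spanned 5.46 FPKM (Eif2b3) to 480 FPKM (Eif5a) as means over the 6 libraries, with a median of 45.1 FPKM, against 8.66 FPKM for all tested genes. At least 10 FPKM was reached by 44 of the 48 (91.7%, against 45.2% of tested genes), and at least 100 FPKM by 11 (22.9%, against 3.1%). The 3 highest were Eif5a, Eif4a1 at 276 FPKM and Eif3h at 216 FPKM, which ranked 53, 118 and 151 among the tested genes. Together the 48 took 1.18% ± 0.0378 of all FPKM in shMettl3_dox and 1.10% ± 0.0177 in shLuc_dox (SD, n = 3 each), and the groups did not overlap. As a share of protein-coding FPKM they took 1.31% ± 0.00547 in shMettl3_dox and 1.25% ± 0.0126 in shLuc_dox, again without overlap. Replicates were close: the median coefficient of variation over members was 4.23% in shMettl3_dox and 3.66% in shLuc_dox, against 7.08% and 5.64% over all tested genes. The members lay at higher levels, and this comparison was not matched on level.

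**Figure D2:**
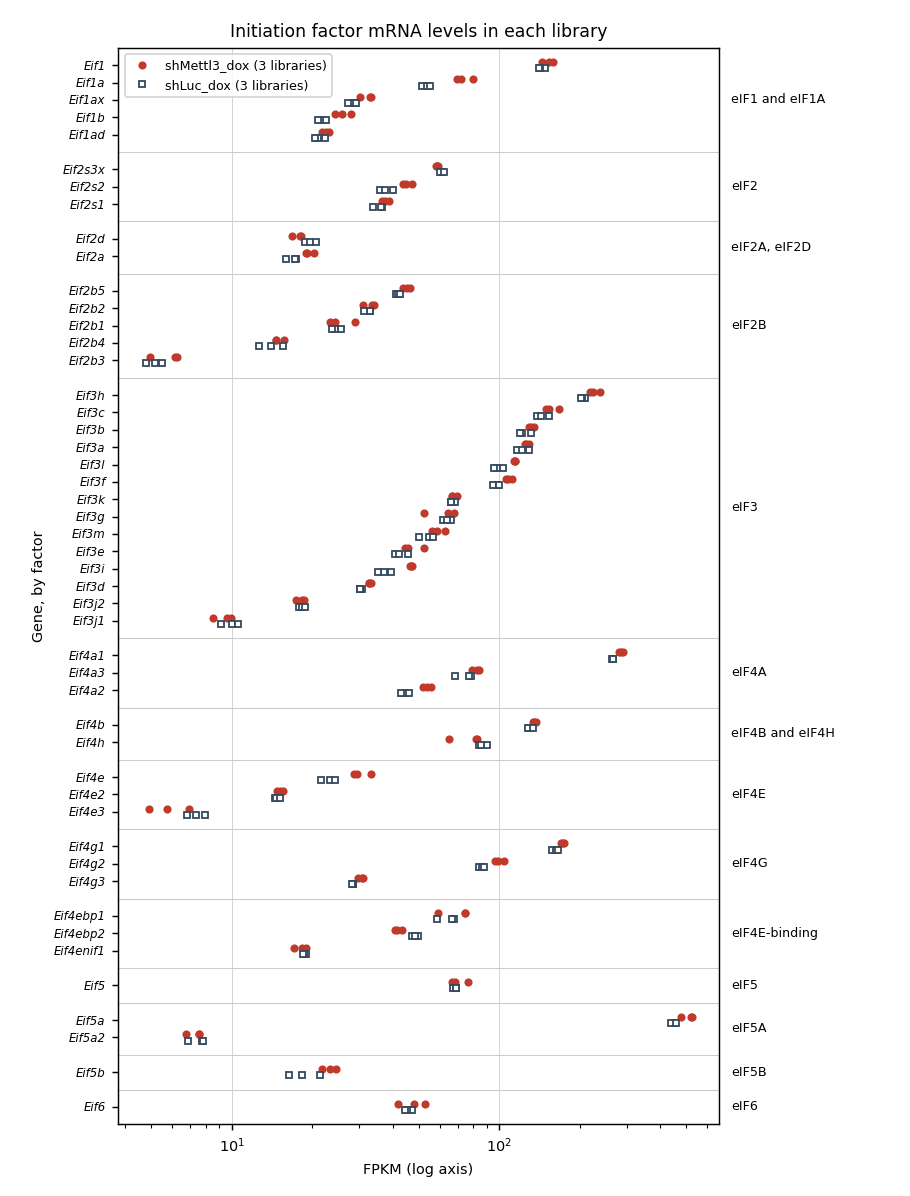
FPKM (log x axis) of the 48 initiation factors in each of the 3 shMettl3_dox and 3 shLuc_dox libraries, grouped by factor. Levels differ far more between genes, from 5.46 to 480 FPKM as means, than between the groups for any gene.

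**Figure D3:**
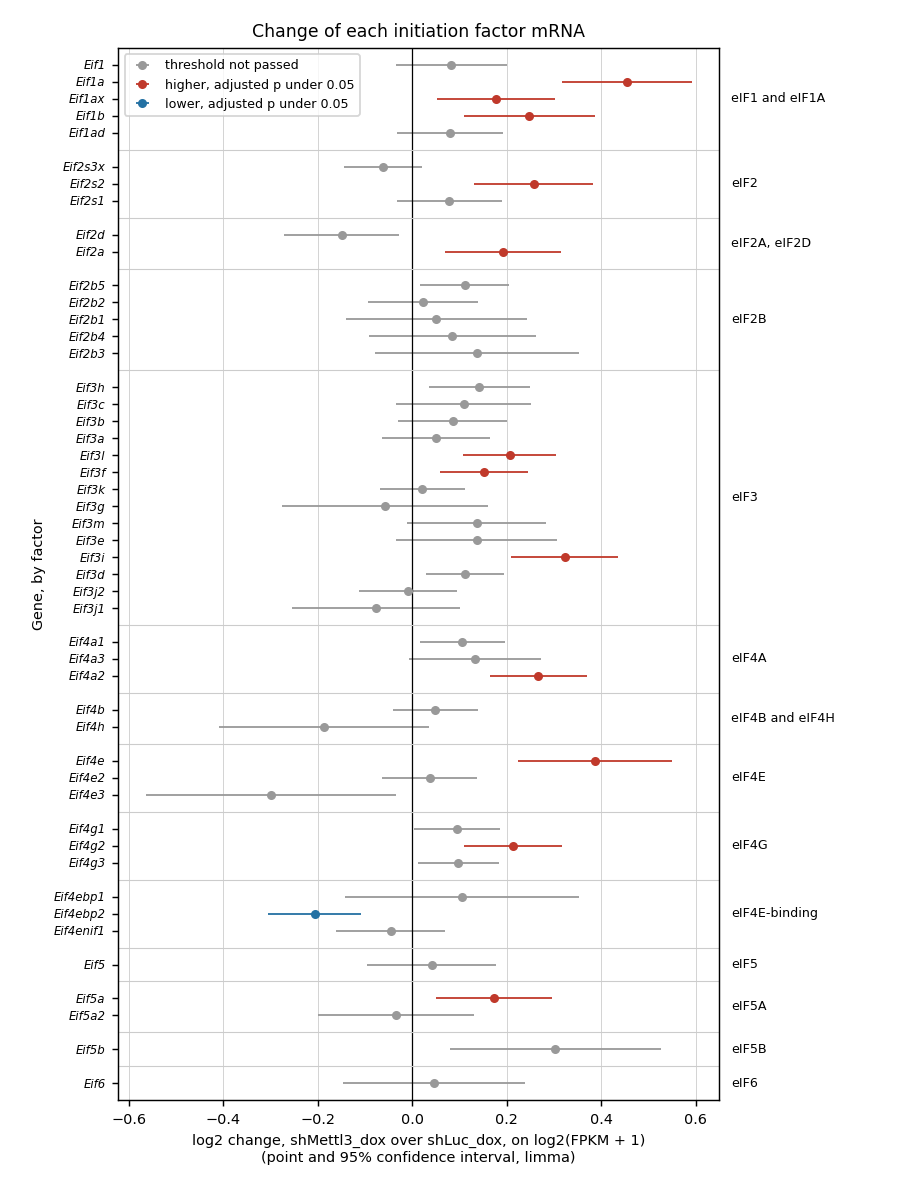
Log2 change of shMettl3_dox over shLuc_dox on log2(FPKM + 1) with its 95% confidence interval from limma for each of the 48 initiation factors, grouped by factor. The 12 that rose reach from 0.15 to 0.45, the 1 that fell is at -0.21, and 35 did not pass the threshold.

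The genes grouped here under eIF1 and eIF1A, Eif1ad among them, held 3 of the 12 rises. That is 60% of the 5 measured genes of the group, against 14.6% of all tested genes. Eif1a encodes eIF1A, which helps the small subunit scan and binds its decoding site. It had 71.9, 69.9 and 79.6 FPKM in shMettl3_dox, against 51.5, 54.0 and 55.0 FPKM in shLuc_dox. Every shMettl3_dox library lay above every shLuc_dox library, 1.38-fold on average, and the log2 change of 0.45 ± 0.06 (SE; limma adjusted p = 0.00217) was the highest of the 48. Its X-linked paralogue Eif1ax had 33.0, 33.3 and 30.2 FPKM in shMettl3_dox, against 28.5, 27.2 and 29.3 FPKM in shLuc_dox (log2 change 0.18 ± 0.05, adjusted p = 0.0446). The gap for Eif1ax was narrow, and its call held in 1 of the 6 fits that left out a library. Eif1b encodes a near copy of eIF1, the factor that guards against initiation at wrong codons. It had 24.3, 27.9 and 26.0 FPKM in shMettl3_dox, against 21.7, 22.6 and 21.03 FPKM in shLuc_dox (log2 change 0.25 ± 0.06, adjusted p = 0.0210). The Eif1b call held in 3 of the 6 fits that left out a library, with adjusted p of 0.0671 and 0.0702 without shLuc_dox replicates 1 and 3 and 0.0523 without shMettl3_dox replicate 2, and it was lost in DESeq2 (adjusted p = 0.0572). An antisense gene covers 12.7% of the exonic bases of Eif1b, and the sources used here do not give the strand setting of the counting. The main eIF1 gene, Eif1, averaged 153 ± 7.50 FPKM in shMettl3_dox and 144 ± 4.44 FPKM in shLuc_dox, and its groups overlapped, as did those of Eif1ad. Summed over the 5 genes, the FPKM in shMettl3_dox was 1.14-fold that in shLuc_dox, without overlap as deposited, with median-of-ratios scaling or with protein-coding scaling.

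Of the 3 measured subunits of eIF2, the factor that delivers initiator tRNA, 1 rose (33.3%, against 14.6% of all tested genes). Eif2s2, the beta subunit, had 43.7, 44.7 and 47.4 FPKM in shMettl3_dox, against 36.0, 37.3 and 40.0 FPKM in shLuc_dox. The groups were clearly apart, with a log2 change of 0.26 ± 0.05 (adjusted p = 0.0132), and 10.2% of the 50-base stretches of Eif2s2 also occur in other genes. Eif2s1, the alpha subunit that stress kinases phosphorylate, had 36.5, 37.4 and 38.7 FPKM in shMettl3_dox, against 33.7, 36.6 and 36.2 FPKM in shLuc_dox, with overlap (log2 change 0.08 ± 0.05, adjusted p = 0.264). The gamma subunit gene Eif2s3x had the opposite sign, with 58.5 ± 0.639 FPKM in shMettl3_dox and 61.1 ± 0.910 FPKM in shLuc_dox, without overlap and without passing (adjusted p = 0.229). A share of 34.6% of the 50-base stretches of Eif2s3x also occurs in Gm2223, so its reads are uncertain. All 5 subunit genes of eIF2B, the exchange factor of eIF2, had positive log2 values from 0.02 to 0.14, but that of Eif2b1 was -0.04 without shMettl3_dox replicate 3 and that of Eif2b2 was -0.02 with protein-coding scaling. None of the 5 passed in limma, edgeR or DESeq2, and 1 had an unadjusted p under 0.05 in limma. That gene was Eif2b5, the catalytic subunit, with 45.3 ± 1.35 FPKM in shMettl3_dox and 41.9 ± 0.824 FPKM in shLuc_dox (adjusted p = 0.0810).

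Eif2a and Eif2d encode separate factors that can deliver tRNA without eIF2, and their values ran in opposite directions. Eif2a had 19.0, 19.1 and 20.3 FPKM in shMettl3_dox, against 17.5, 15.9 and 17.3 FPKM in shLuc_dox (log2 change 0.19 ± 0.05, adjusted p = 0.0335). The groups of Eif2a did not overlap, but its call was lost in each of the 6 fits that left out a library, with adjusted p between 0.0598 and 0.105. Eif2d averaged 17.6 ± 0.744 FPKM in shMettl3_dox and 19.7 ± 0.890 FPKM in shLuc_dox, also without overlap. Its limma call missed the threshold (log2 change -0.15 ± 0.05, adjusted p = 0.0716), while edgeR gave an adjusted p of 0.0307. The sum of the pair was alike in both groups, 37.1 ± 0.00301 FPKM in shMettl3_dox and 36.6 ± 1.24 FPKM in shLuc_dox.

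The eIF3 complex is the largest factor, a scaffold that bridges the small subunit and eIF4G. Of its 14 measured genes 3 rose (21.4%, against 14.6% of all tested genes) and 0 fell (against 13.5%). In either direction 21.4% were called, against 28.1% of all tested genes, so the number of calls was no higher than the background. No eIF3 gene had an unadjusted p under 0.05 on the lower side in limma, edgeR or DESeq2. The share of all tested genes at that unadjusted threshold is not given here, so this count has no background. Eif3i, a WD-repeat subunit at chr4:129591960-129600648 (ENSMUSG00000028798), had 46.9, 47.3 and 46.3 FPKM in shMettl3_dox, against 37.1, 35.3 and 39.4 FPKM in shLuc_dox. Its shMettl3_dox libraries were almost equal and far above the rest, 1.26-fold on average (log2 change 0.32 ± 0.05, adjusted p = 0.00383). Eif3l, which sits with Eif3k on the outer module, had 115, 115 and 114 FPKM in shMettl3_dox, against 98.1, 95.7 and 104 FPKM in shLuc_dox (log2 change 0.21 ± 0.04, adjusted p = 0.0123). Eif3f, an MPN-domain subunit and one of those with CACGTG upstream, had 106, 108 and 112 FPKM in shMettl3_dox, against 98.0, 95.2 and 99.6 FPKM in shLuc_dox (log2 change 0.15 ± 0.04, adjusted p = 0.0289). The groups of both genes were apart in all libraries, and the call of Eif3f held in 1 of the 6 fits without a library.

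Eif3h, the MPN-domain subunit reported to bind METTL3, had 224, 219 and 237 FPKM in shMettl3_dox, against 210, 204 and 202 FPKM in shLuc_dox. The groups did not overlap, and the log2 change was 0.14 ± 0.05 with an adjusted p of 0.0568 in limma and 0.0375 in edgeR. Of its 50-base stretches 20.3% also occur in other genes. Eif3d, which can itself bind caps, averaged 32.9 ± 0.279 FPKM in shMettl3_dox and 30.3 ± 0.269 FPKM in shLuc_dox (log2 change 0.11 ± 0.03, adjusted p = 0.0511). The coefficient of variation of Eif3d was 0.848% in shMettl3_dox and 0.888% in shLuc_dox, but 43.3% of its exonic bases lie opposite the antisense gene Gm17638. The core genes Eif3a, Eif3b and Eif3c averaged 127, 132 and 157 FPKM in shMettl3_dox and 123, 125 and 145 FPKM in shLuc_dox, each with overlap. The loosely held subunit genes Eif3j1 and Eif3j2 were lowest, at 9.65 and 18.2 FPKM, and reads of the pair cannot be told apart well since 91.8% of the stretches of Eif3j2 recur elsewhere, mainly in Eif3j1. From Eif3j1 to Eif3h the mRNA levels spanned 22.4-fold. Summed eIF3 FPKM was 1209 ± 20.3 in shMettl3_dox and 1118 ± 30.1 in shLuc_dox, without overlap.

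In each of eIF4E, eIF4A and eIF4G 1 of 3 measured genes rose (33.3%, against 14.6% of all tested genes): Eif4e, Eif4a2 and Eif4g2. In either direction 33.3% of each were called, against 28.1% of all tested genes. Of the 2 genes of eIF4B and eIF4H 0 were called. Eif4e (chr3:138526179-138559696, ENSMUSG00000028156) encodes the cap-binding protein and holds CACGTG at both places shown in its window. It had 29.5, 28.7 and 33.3 FPKM in shMettl3_dox, against 21.6, 23.3 and 24.3 FPKM in shLuc_dox. All shMettl3_dox libraries were above all shLuc_dox libraries, 1.32-fold on average (log2 change 0.39 ± 0.07, adjusted p = 0.00748). Eif4e2, a cap-binding homologue tied to translational repression, averaged 15.2 ± 0.427 FPKM in shMettl3_dox and 14.8 ± 0.338 FPKM in shLuc_dox, with overlap. Eif4e3, the third homologue, averaged 5.86 ± 1.03 FPKM in shMettl3_dox and 7.39 ± 0.563 FPKM in shLuc_dox, with overlap and without passing in limma (log2 change -0.30 ± 0.11, adjusted p = 0.0910). The count test of edgeR gave Eif4e3 an adjusted p of 0.0473, and 14.8% of its exonic bases lie in exons of Gm20696 on its strand. The Eif4e share of the summed FPKM of these 3 genes was 59.6%, 56.0% and 61.9% in shMettl3_dox, against 49.7%, 52.1% and 51.3% in shLuc_dox.

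Among the helicase genes, Eif4a1 had 281, 292 and 286 FPKM in shMettl3_dox, against 267, 263 and 268 FPKM in shLuc_dox. The groups of Eif4a1 were apart by little, and the change did not pass (log2 change 0.11 ± 0.04, adjusted p = 0.0786); 28.4% of its stretches also occur in other genes, mostly Eif4a-ps4. Eif4a2, its paralogue at chr16:23107444-23114136 (ENSMUSG00000022884), had 52.0, 53.7 and 55.4 FPKM in shMettl3_dox, against 44.4, 45.9 and 43.1 FPKM in shLuc_dox (log2 change 0.27 ± 0.04, adjusted p = 0.00515). Eif4a2 hosts small RNAs, and 9.63% of its exonic bases lie in exons of other genes on its strand. Its share of the FPKM of both helicase genes was 15.8% ± 0.394 in shMettl3_dox and 14.3% ± 0.488 in shLuc_dox, without overlap. Eif4a3, whose product is a core of the exon junction complex rather than of eIF4F, averaged 81.9 ± 2.32 FPKM in shMettl3_dox and 74.7 ± 5.42 FPKM in shLuc_dox (adjusted p = 0.142). Neither helicase partner passed in limma or edgeR, and 1 passed in DESeq2. Eif4b, which stimulates eIF4A, averaged 135 ± 1.59 FPKM in shMettl3_dox and 131 ± 3.28 FPKM in shLuc_dox, with overlap. Eif4h averaged 76.6 ± 10.0 FPKM in shMettl3_dox and 86.7 ± 3.26 FPKM in shLuc_dox (log2 change -0.19 ± 0.09, adjusted p = 0.189 in limma and 0.0333 in DESeq2), and the log2 change of Eif4h was -0.07 without shMettl3_dox replicate 3, the library that stood apart.

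Of the 3 scaffold genes 1 rose (33.3%, against 14.6% of all tested genes). All 3 had higher values in every shMettl3_dox library than in any shLuc_dox library, as had 23.6% of all tested genes. Eif4g2, also called DAP5, lacks the eIF4E-binding part of eIF4G and serves initiation that does not depend on eIF4E. It had 99.5, 96.4 and 104 FPKM in shMettl3_dox, against 83.8, 86.5 and 88.1 FPKM in shLuc_dox (log2 change 0.21 ± 0.04, adjusted p = 0.0130). Eif4g1, the main scaffold, had 173, 175 and 171 FPKM in shMettl3_dox, against 158, 163 and 166 FPKM in shLuc_dox. Its groups did not overlap, but the log2 change of 0.09 ± 0.04 did not pass (adjusted p = 0.115). Eif4g3 averaged 30.4 ± 0.598 FPKM in shMettl3_dox and 28.4 ± 0.136 FPKM in shLuc_dox (adjusted p = 0.0897). The Eif4g2 share of the 3 was 32.9% ± 1.08 in shMettl3_dox and 31.1% ± 0.0891 in shLuc_dox, without overlap.

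The inhibitor side of eIF4E held the only fall. Eif4ebp2 (chr10:61428491-61452661, ENSMUSG00000020091) encodes 4E-BP2, which sequesters eIF4E when mTORC1 is low. It had 43.2, 41.4 and 40.7 FPKM in shMettl3_dox, against 49.6, 47.1 and 48.4 FPKM in shLuc_dox. Each shMettl3_dox library was below each shLuc_dox library (log2 change -0.21 ± 0.04, adjusted p = 0.0117). It is also the only one of the 52 genes in the authors' deposited table of 1960 genes lower in shMettl3_dox, where the authors' log2 fold change is -0.20 and the authors' adjusted p is 0.000394. Eif4ebp1, which encodes the better known 4E-BP1, had 74.7, 74.9 and 58.9 FPKM in shMettl3_dox, against 67.8, 66.6 and 58.3 FPKM in shLuc_dox. The groups of Eif4ebp1 overlapped (log2 change 0.11 ± 0.10, adjusted p = 0.499), and replicate 3 was 0.787 times the mean of the other shMettl3_dox libraries. Eif4enif1, the eIF4E transporter gene, averaged 18.1 ± 0.968 FPKM in shMettl3_dox and 18.7 ± 0.256 FPKM in shLuc_dox, with overlap. The Eif4ebp2 share of both inhibitor genes was 36.7%, 35.6% and 40.9% in shMettl3_dox, against 42.3%, 41.4% and 45.3% in shLuc_dox. The summed FPKM of Eif4ebp1 and Eif4ebp2 over that of Eif4e was 3.99, 4.05 and 2.99 in shMettl3_dox, against 5.43, 4.88 and 4.39 in shLuc_dox. Inhibitor mRNA per Eif4e mRNA was lower in each shMettl3_dox library, 0.750-fold on average, on the FPKM scale and not for protein. The lower ratio mostly reflects the higher Eif4e value, which was 1.32-fold. The summed FPKM of Eif4ebp1, Eif4ebp2 and Eif4enif1 averaged 129 in shMettl3_dox and 131 in shLuc_dox (0.985-fold), with overlap. Such shares and ratios are given as values in the libraries, with no test; the smallest p that an exact two-sided permutation test of 3 against 3 allows is 0.10.

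**Figure D4:**
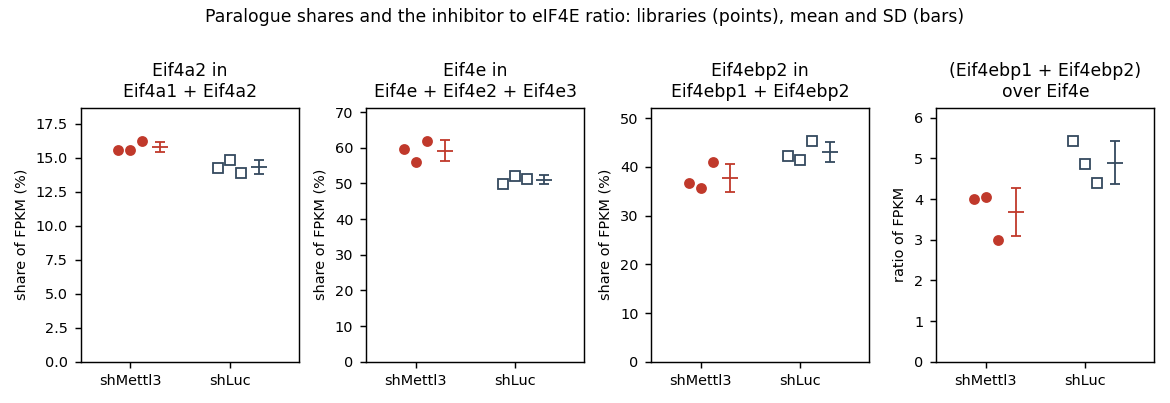
From left to right, the share of FPKM (%, y axes) of Eif4a2 in the Eif4a1 and Eif4a2 pair, of Eif4e among 3 cap-binding genes and of Eif4ebp2 in the inhibitor pair, and the ratio of inhibitor to Eif4e FPKM. Points are libraries and bars the mean and SD; the first 2 measures are higher and the last 2 lower in every shMettl3_dox library than in any shLuc_dox library.

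Of the late-acting factors Eif5a rose, and Eif5b came close to the threshold. Eif5a encodes the hypusine-bearing factor that relieves stalled ribosomes and was the most abundant of the 48. It had 524, 523 and 479 FPKM in shMettl3_dox, against 453, 441 and 459 FPKM in shLuc_dox (log2 change 0.17 ± 0.05, adjusted p = 0.0476). The third shMettl3_dox library came closest to the other group, and the call of Eif5a held in 1 of the 6 fits without a library, that without this replicate (adjusted p = 0.00801). Its rare paralogue Eif5a2 averaged 7.28 ± 0.474 FPKM in shMettl3_dox and 7.48 ± 0.543 FPKM in shLuc_dox, with overlap. Eif5b, the GTPase of subunit joining, averaged 23.2 ± 1.45 FPKM in shMettl3_dox and 18.7 ± 2.49 FPKM in shLuc_dox. It missed the limma threshold (log2 change 0.30 ± 0.09, adjusted p = 0.0519) and passed in edgeR (adjusted p = 0.00600), and 16.9% of its exonic bases lie opposite Rev1. Eif5, the GTPase activator of eIF2, had 68.2, 66.6 and 76.7 FPKM in shMettl3_dox, against 67.3, 68.8 and 69.1 FPKM in shLuc_dox, with overlap. Its log2 change of 0.04 ± 0.06 (adjusted p = 0.643) was -0.02 without shMettl3_dox replicate 3. Eif6, which keeps the ribosomal subunits apart, averaged 47.4 ± 5.47 FPKM in shMettl3_dox and 45.7 ± 1.37 FPKM in shLuc_dox, with overlap.

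**Figure D5:**
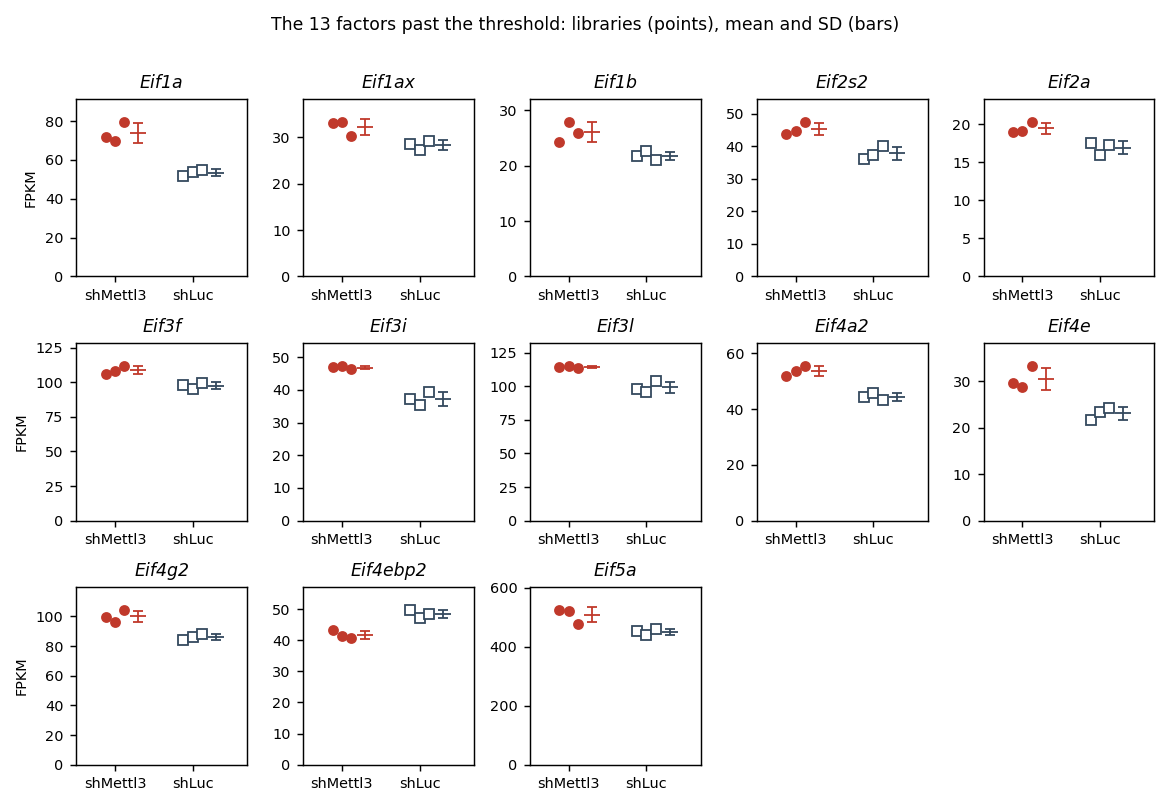
FPKM (y axes, from 0) of the 13 genes past the threshold in each library, with shMettl3_dox left of shLuc_dox; bars are the mean and SD (n = 3 each). In all 13 panels the groups do not overlap, and only Eif4ebp2 is lower in shMettl3_dox.

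Within shMettl3_dox the library that stood apart moved some factors more than others. Replicate 3 was at 0.787 to 0.830 times the mean of replicates 1 and 2 for Eif4ebp1, Eif4h, Eif3g and Eif6, and at 1.22 and 1.16 times for Eif2b1 and Eif3e. None of these 6 genes passed the threshold in limma or edgeR with all libraries. By the summed FPKM of each factor, eIF1 with eIF1A, eIF3, eIF4A, eIF4E, eIF4G and eIF5A were higher in every shMettl3_dox library than in any shLuc_dox library as deposited, with median-of-ratios scaling and with protein-coding scaling. Their ratios of means ran from 1.08 for eIF3 to 1.14 for eIF1 with eIF1A as deposited, and from 1.05 to 1.11 with protein-coding scaling. The sums of eIF2, eIF2B and eIF5B overlapped between the groups with protein-coding scaling, and that of eIF4B with eIF4H was lower in shMettl3_dox without overlap there (0.946-fold).

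Other genes of translation control were counted in 4 lists of 58 genes, all of them measured. Of these 14 rose and 5 fell (24.1% and 8.62%, against 14.6% and 13.5% of all tested genes). The lists were chosen with earlier results of these data known, so their shares are no independent comparison with all tested genes. With protein-coding scaling 9 rose and 6 fell. Leaving out shLuc_dox replicate 1 or 3 gave 8 rises, as did leaving out shMettl3_dox replicate 2, and leaving out shMettl3_dox replicate 1 gave 9. For these fits too the share of all tested genes called is not given. Cap complex partners and mTORC1 inputs went both ways, with 4 of 21 higher (19.0%) and 5 lower (23.8%). Pabpc4, a poly(A)-binding protein gene, averaged 45.2 ± 1.64 FPKM in shMettl3_dox and 32.7 ± 0.595 FPKM in shLuc_dox (log2 change 0.46, adjusted p = 0.000673). Larp1, which binds the caps of mRNAs for the translation machinery, averaged 49.0 ± 0.688 FPKM in shMettl3_dox and 39.1 ± 0.985 FPKM in shLuc_dox (0.32, adjusted p = 0.00170). Mknk2, whose kinase phosphorylates eIF4E, averaged 30.6 ± 1.96 FPKM in shMettl3_dox and 47.0 ± 1.60 FPKM in shLuc_dox (-0.60, adjusted p = 0.000693). Paip2, an inhibitor of poly(A)-binding protein, averaged 34.7 ± 1.94 FPKM in shMettl3_dox and 49.6 ± 1.94 FPKM in shLuc_dox (-0.50, adjusted p = 0.00110). The other genes past the threshold, named after their values were seen, were Cyfip1 and Rps6kb1 on the higher side and Angel1, Gigyf2 and Pdcd4, which encodes an inhibitor of eIF4A, on the lower side. Cyfip1, Angel1 and Gigyf2 passed in all 6 fits that left out a library, Pdcd4 in 2 (adjusted p between 0.0300 and 0.0797) and Rps6kb1 in 1 (between 0.0467 and 0.134).

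Of 14 genes listed under elongation and termination 6 rose (42.9%, against 14.6% of all tested genes) and 0 fell in limma. The list also holds genes of mitochondrial factors. None of the 14 had an unadjusted p under 0.05 on the lower side in limma, edgeR or DESeq2. For this list and those that follow, counts at that unadjusted threshold have no share of all tested genes beside them. Gspt2, a release factor gene, averaged 9.64 ± 0.217 FPKM in shMettl3_dox and 6.30 ± 0.119 FPKM in shLuc_dox (log2 change 0.54, adjusted p = 0.000477). Eef1g, an exchange subunit of elongation factor 1, averaged 421 ± 8.18 FPKM in shMettl3_dox and 358 ± 3.74 FPKM in shLuc_dox (0.23, adjusted p = 0.00626). Gfm1 and Tufm, genes of mitochondrial elongation factors, also rose, but these calls were less stable. So were the rises of Eef1e1 and Efl1, which encode a protein of the tRNA synthetase complex and a ribosome maturation GTPase. Of the 6 fits that left out a library, Gfm1 passed in 3 (adjusted p between 0.0222 and 0.0633), Eef1e1 in 2 (0.0181 to 0.0791), Efl1 in 1 (0.0480 to 0.107) and Tufm in 1 (0.0407 to 0.111). Tufm did not pass in edgeR (adjusted p = 0.0654) or DESeq2 (adjusted p = 0.117). Among 14 genes around the phosphorylation of eIF2, 0 fell in limma. On the lower side 0 had an unadjusted p under 0.05 in limma and 1 each in edgeR and DESeq2. In limma 2 of the 14 rose (14.3%, against 14.6% of all tested genes). Atf4, the transcription factor whose translation rises when eIF2 is phosphorylated, was one (log2 change 0.41, adjusted p = 0.00131), and Nck1, an adaptor gene, the other (10.4 ± 0.722 FPKM in shMettl3_dox, against 8.82 ± 0.452 FPKM in shLuc_dox, adjusted p = 0.0480). The Nck1 call held in 1 of the 6 fits that left out a library (adjusted p between 0.0359 and 0.147) and was lost with median-of-ratios (adjusted p = 0.0615), quantile (0.0660) and protein-coding scaling (0.0921). Of the 4 kinase genes of eIF2, 0 passed in limma or DESeq2 and 1 passed in edgeR. It was Eif2ak2, the kinase activated by double-stranded RNA and the only one of the 4 with an unadjusted p under 0.05 in limma, which averaged 18.1 ± 0.863 FPKM in shMettl3_dox and 16.1 ± 0.698 FPKM in shLuc_dox (limma adjusted p = 0.0600). Ddit3, a target of ATF4, averaged 9.68 ± 1.06 FPKM in shMettl3_dox and 11.4 ± 1.16 FPKM in shLuc_dox (adjusted p = 0.129). Of 9 genes listed under scanning, recycling and reinitiation, among them the mitochondrial ribosomal protein gene Dap3, 2 rose (22.2%). They were the helicase gene Dhx29 and Mcts2. In the list 0 fell in limma, edgeR or DESeq2, and 1 had an unadjusted p under 0.05 on the lower side in limma. Mcts2 averaged 14.8 ± 0.996 FPKM in shMettl3_dox and 11.9 ± 0.234 FPKM in shLuc_dox (0.29, adjusted p = 0.0102), and did not pass in edgeR (adjusted p = 0.0582) or DESeq2 (adjusted p = 0.0984). Dhx29 passed in 1 of the 6 fits that left out a library (adjusted p between 0.0373 and 0.120). Denr, whose product pairs with MCTS1 in reinitiation, averaged 13.01 ± 0.289 FPKM in shMettl3_dox and 11.0 ± 1.21 FPKM in shLuc_dox (adjusted p = 0.0609), and Mcts1 averaged 20.1 ± 0.0932 FPKM in shMettl3_dox and 21.9 ± 0.760 FPKM in shLuc_dox (adjusted p = 0.0771).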

How the data were processed

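RNA-seq of total RNA was measured in 6 libraries, 3 of shMettl3_dox and 3 of shLuc_dox. The authors deposited FPKM for 54532 genes and, for 1960 genes listed as lower in shMettl3_dox, a normalized read count signal per library (reads divided by 1 size factor), a log2 fold change and p-values. The log2 fold changes, p-values and adjusted p-values in that deposited table are the authors' own, with no test named in its header, and its shMettl3 columns carry the number 2 after shMettl3. Per the submitters' processing notes, the tools were featureCounts 1.5.3, STAR, fastp and DESeq2 with mm10; roles, parameters and strand setting are not known here.

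Groups and replicates came from the labels. The main test was limma 3.58.1 (R 4.3.3) on log2(FPKM + 1), with an intensity trend, for the 12098 genes that averaged 1 FPKM or more, two-sided, Benjamini-Hochberg adjusted over all of them, threshold 0.05. Log2 changes are on this scale, which understates the change of low genes. Reads were recovered as FPKM times a library factor and a gene's GENCODE M21 exon length, which came out whole (tolerance 0.001) in 96.7% of the 26328 expressed genes; the other 872, Eif3a among them, needed another length. On these reads edgeR 4.0.16 (quasi-likelihood, TMM) and DESeq2 1.42.0 were run as alternatives. Other alternatives were pseudocounts of 0.1 and 0.5, no filter on low values, no trend, quantile, median-of-ratios and protein-coding scaling, a replicate block and each library left out. The main limma fit and the edgeR fit were tested on simulated data, while DESeq2 and the other alternatives were not. Gene coordinates, 1-based, are those of GENCODE M21 on GRCm38; promoters are from RefSeq GRCm38.p6.

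Values in every library are given for each member past the threshold and for Eif4e, Eif4a1, Eif4g1, Eif4ebp1, Eif2s1, Eif5 and Eif3h; other members are given by group means, ranges or counts, and up to 4 genes per other list by smallest p. The members and lists were chosen with earlier results of these data known.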

Additional observations from a re-analysis of the deposited data

How the results depend on the processing

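The number of factors higher in shMettl3_dox, 12 with all libraries, ranged from 5 to 12 when 1 library was left out, and the number lower, 1, from 1 to 2. The number lower was 2 with protein-coding scaling (Eif2d added), 3 in edgeR (Eif2d and Eif4e3 added) and 4 in DESeq2 (Eif4h added to those). The number higher was 8 to 14 under the other settings. Outside the main fit, edgeR and DESeq2, the share of all tested genes called is not given here. For the other translation control genes the number higher, 14, was 9 with no filter on low values and 9 with protein-coding scaling, and ranged from 8 to 12 when 1 library was left out; the number lower, 5, ranged from 4 to 6. Among the 48 factors and the named genes of the other lists, 9 factors, none of them past the threshold, turned the sign of a small log2 change in at least 1 setting. When 1 library was left out Eif2b1 ranged from -0.039 to 0.109, Eif2b2 from -0.0064 to 0.063, Eif3g from -0.129 to 0.051, Eif3j2 from -0.028 to 0.018, Eif5 from -0.020 to 0.080, Eif5a2 from -0.089 to 0.014 and Eif6 from -0.031 to 0.133. With protein-coding scaling Eif2b2 was at -0.018, Eif3k at -0.019 and Eif4e2 at -0.0017, and with quantile normalization Eif3k was at -0.018. The Mettl3 fall kept its direction and its side of the threshold under every setting run. Shares and summed FPKM kept their sign wherever the groups had not overlapped, and 170 of their alternative values moved by less than 1 SD, while 10, all of them sums under quantile or protein-coding scaling, moved by more. The cause of these shifts was not tested.

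Same-numbered libraries did not deviate together (correlations of 0.034, -0.0068 and 0.063), so the numbers were not taken as pairs. With a replicate block 12 factors were higher, 10 of them shared with the fit without it, and 1 lower, and 11 and 6 of the other genes were. With 3 libraries a group the precision is limited, and reads that recur in paralogues or pseudogenes, or lie opposite antisense genes, leave Eif2s3x, Eif3j1, Eif3j2, Eif4a1, Eif3d and Eif3h uncertain.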
